A study of Macaca mulatta with 24 samples.

Results

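The proteasome genes and the subunits of the TRiC chaperonin were examined in airway epithelial cells of rhesus macaques exposed to wood smoke. Members were the genes whose symbol starts with PSMA, PSMB, PSMC, PSMD, PSME, PSMF or PSMG followed by a digit, together with TCP1, CCT2, CCT3, CCT4, CCT5, CCT6A, CCT7 and CCT8, kept where a value of 10 or more was reached in at least 4 libraries. Of 35432 genes in the table, 56 matched these symbols and 54 passed. PSMB11, the beta subunit of the thymus, and PSMA8, the alpha subunit of the testis, did not pass, and their highest values were 3.19 and 2.18. The 54 members were 45 proteasome genes, 8 TRiC genes and PSMC3IP, which shares the prefix only and encodes a cofactor of meiotic recombination. A further row without a symbol matched PSMC6, a proteasome ATPase, through the gene name table, and is described beside the members without being counted among them.

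The cells were primary cells of the trachea and bronchi from adult female rhesus macaques, grown at an air-liquid interface in medium with retinoic acid. Smoke cultures received diluted whole wood smoke and air cultures filtered air, for 6 hours on each exposure day. The 6 groups were smoke and air after 1 day, smoke and air after 5 consecutive days, and smoke and air after 5 such days and then 7 without exposure (recovery). Each group held 1 library from each of the same 4 animals, S1 to S4, aged 5463, 2930, 2238 and 1128 days at body weights of 5.59, 7.17, 4.56 and 3.18 kg, so age, weight and animal cannot be told apart. Poly-A RNA was sequenced.

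The proteasome degrades proteins that carry chains of ubiquitin. Its 20S core is a barrel of stacked rings, in which alpha subunits form the gated outer rings and beta subunits form the inner rings that hold the proteolytic sites. The 19S cap recognises ubiquitin, removes it, and unfolds the substrate with a ring of ATPases. In the immunoproteasome the catalytic subunits PSMB5, PSMB6 and PSMB7 are replaced by PSMB8, PSMB9 and PSMB10, which interferon induces and which favour peptides for antigen presentation. TRiC, also called CCT, is a double-ring chaperonin that folds actin, tubulin and other newly made cytosolic proteins. When proteasome capacity falls short, the transcription factor NFE2L1 raises many proteasome genes together, while HSF1 raises chaperone genes under heat and proteotoxic stress. No member sequence was taken from the sources used here.

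The deposited values were normalized counts per gene and library that summed to between 11800000 and 15200000 per library. The epithelial markers KRT5 and FOXJ1 were present. The leukocyte marker PTPRC and the endothelial marker CDH5 were at or near 0 in every library (highest values 1.69 and 0). Other markers on these lists passed the filter: CD68, CD14 and LYZ for immune cells, and PECAM1 and VWF for endothelium. So did COL1A1, COL1A2, COL3A1 and PDGFRA for fibroblasts. Per library the immune list summed to 2446 to 5378, the endothelial list to 70.26 to 261.9 and the fibroblast list to 378.4 to 730.7. Whether such cells were present was not tested. The air library of S1 at 5 days stood apart: its median correlation with the other libraries was 0.860, against 0.931 to 0.956 for the others. In that library the median of the 45 proteasome genes lay 0.65 above their average over all libraries on the log2 scale, and in the other 23 libraries it lay between -0.22 and 0.19. Values without it are given beside the results that it changed in call, sign or size, and because all libraries share 1 estimate of spread, leaving it out also narrowed the errors of comparisons that do not contain it. All fold changes are differences of log2(value + 1) between the groups, with the standard error (SE) of a limma fit that holds each animal as a block, and adjusted p-values are Benjamini-Hochberg values over 14062 genes. In such bulk libraries, fewer cells of a type and less RNA per cell cannot be told apart.

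**Figure D1:**
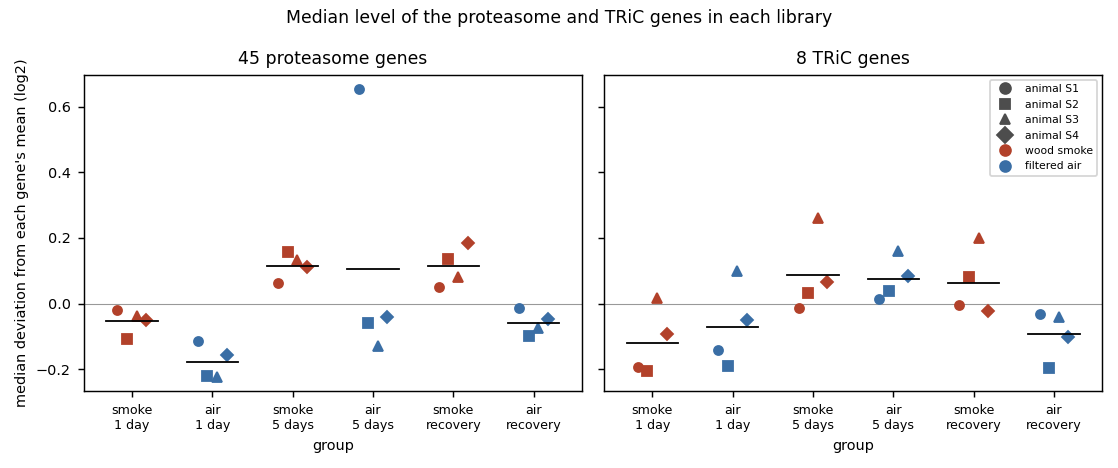
Median deviation from the gene average (log2 scale) of the 45 proteasome genes and of the 8 TRiC genes in each library, with smoke left of air at each time and a line at each group mean. The 5-day S1 air library lies at 0.65 in the proteasome panel, and the 4 smoke libraries after recovery lie between 0.05 and 0.19, against -0.10 to -0.01 in the air libraries.

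Most proteasome genes had small positive fold changes of smoke over air. After 1 day, 41 of 45 proteasome genes had a fold change above 0, with a median of 0.11, against 0.00 over all genes tested. After 5 days 25 of 45 were above 0 (median 0.03), and 43 of 45 (median 0.18) without the 5-day S1 air library. After recovery 38 of 45 were above 0 with a median of 0.17. The median differed little among animals at 1 day, with smoke minus air values of 0.09, 0.10, 0.14 and 0.09 in S1 to S4. At 5 days they were -0.62, 0.15, 0.24 and 0.16, so that S1 alone was below 0, and after recovery they were 0.06, 0.27, 0.17 and 0.27.

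Few of these differences passed the test for single genes. No member passed at 1 day, where 0.0782% of all genes did and 0.0569% were higher. At that time 2 of 54 had an unadjusted p under 0.05, both higher in smoke, against 4.51% of all genes. Further counts at an unadjusted p under 0.05 are given without such a share. They were not set against all genes here, so they do not show whether members differ from other genes. At 5 days PSMD1 and PSMD11 were called higher and no member lower, against 1.69% of all genes in either direction and 0.889% upward. After recovery PSMA3 and PSMA6 were called higher and none lower, against 3.41% in either direction and 1.14% upward. Without the 5-day S1 air library the counts were 0 of 54 at 1 day, 8 higher and 0 lower at 5 days, and 24 higher and 0 lower after recovery. The shares of all genes called were then 0.960%, 6.26% and 18.8%, of which 0.384%, 2.96% and 8.70% were upward calls. In the fit without the animal block no member was called in any of the 3 comparisons, where 0.0284%, 0.0711% and 0.242% of all genes were. In that fit 2, 6 and 10 members had an unadjusted p under 0.05. Fits on the libraries of each comparison alone called 9 members at 1 day, 0 at 5 days and 21 after recovery, where 9.11%, 0% and 18.8% of all genes were called.

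**Figure D2:**
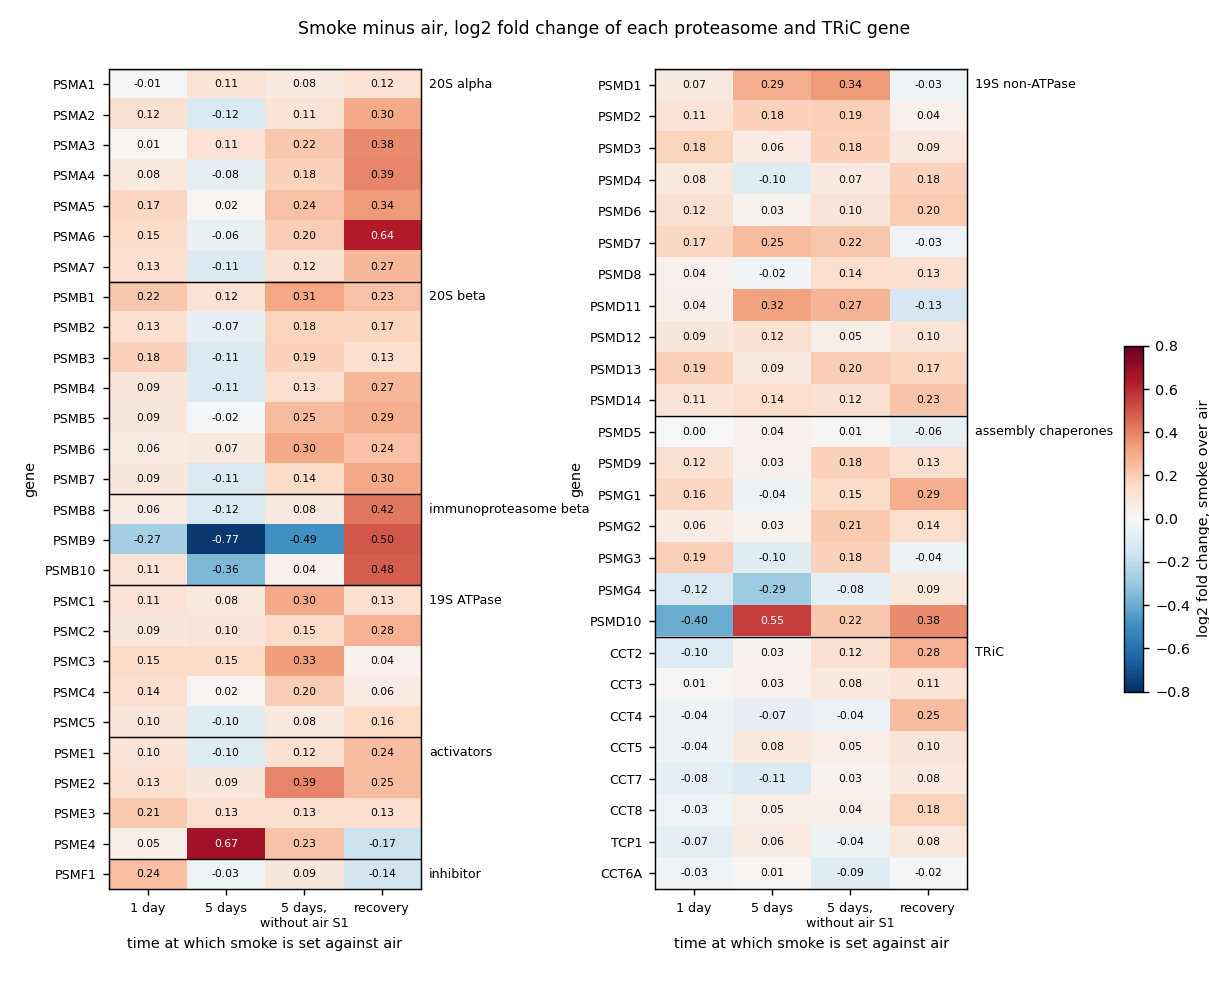
Log2 fold change of smoke over air for the 53 proteasome and TRiC genes, ordered by role, with columns for 1 day, 5 days, 5 days without the air library of S1, and recovery. The alpha and beta rows are mixed in sign at 5 days, above 0 in all 14 genes once the air library of S1 is left out, and above 0 in all 14 genes after recovery.

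The 20S alpha subunits held both calls after recovery. All 7 were above 0, with a median of 0.34, and PSMA3 and PSMA6 were the ones called higher. PSMA6 (ENSMMUG00000016544) had 1333, 1691, 1566 and 2081 normalized counts in the recovered smoke cultures of S1 to S4, against 1161, 1058, 974.6 and 1053 in the air cultures. Every smoke library lay above every air library, the gap was narrowest in S1, and the smoke library of S4 was the highest. The log2 fold change was 0.64 (SE 0.17, 1.55-fold, adjusted p = 0.046, higher in 4 of 4 animals). The adjusted p was 3.3e-04 without the 5-day S1 air library and 0.20 without the block. The call held in 5 of the 28 fits that left out a library or an animal: those without the 5-day air library of animal S1, S3 or S4, without the recovered smoke library of S1, or without all libraries of S1.

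PSMA3 (ENSMMUG00000003509) had 1196, 1266, 1275 and 1320 normalized counts after smoke and recovery, against 1064, 934.2, 895.6 and 1008 after air and recovery. The groups did not overlap, and the air library of S1 was the one nearest to the smoke range. The log2 fold change was 0.38 (SE 0.09, 1.30-fold, adjusted p = 0.023, 4 of 4 animals). The adjusted p was 2.9e-04 without the 5-day S1 air library and 0.14 without the block. The call was lost on leaving out the recovered smoke or air library of S2, S3 or S4, or all libraries of any of those animals, with adjusted p up to 0.29.

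PSMA4, PSMA5 and PSMA2 had fold changes of 0.39, 0.34 and 0.30 after recovery, with adjusted p of 0.18, 0.19 and 0.26. Without the 5-day S1 air library all 3 passed, at 6.0e-04, 0.0013 and 0.0018, as did PSMA7, and PSMA1 did not. At 1 day the alpha median was 0.12, with 6 of 7 above 0, and PSMA5 had 630.7, 602.5, 683 and 611 normalized counts after smoke, against 592.3, 525.8, 586 and 549.6 after air. The smoke libraries of PSMA5 were all above the air libraries, and its fold change of 0.17 had an adjusted p of 0.9998. At 5 days the alpha median was -0.06 with 3 of 7 above 0, and 0.18 with 7 of 7 without the air library of S1.

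**Figure D3:**
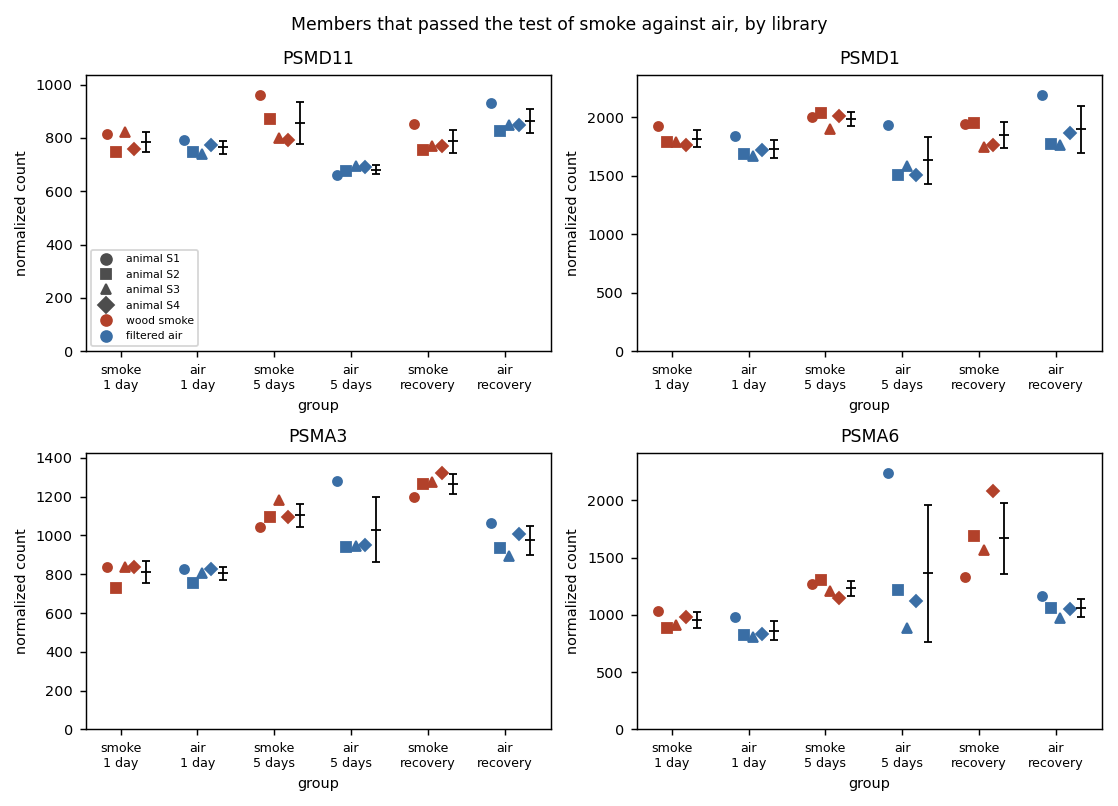
Normalized counts of PSMD11, PSMD1, PSMA3 and PSMA6 in each library, smoke left of air at each time, with group means and SD (n = 4 animals a group). PSMD11 and PSMD1 stand higher in smoke at 5 days, and PSMA3 and PSMA6 after recovery, where all 4 smoke libraries of each lie above all 4 air libraries.

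For the constitutive 20S beta subunits the median fold change was 0.09 at 1 day (7 of 7 above 0), -0.07 at 5 days (2 of 7; 0.19 and 7 of 7 without the air library of S1) and 0.24 after recovery (7 of 7). None passed the test at any time, and 0 of 7 had an unadjusted p under 0.05 in any of the 3 comparisons. PSMB5, which carries the chymotrypsin-like site, had 1007, 1022, 1136 and 1145 normalized counts after smoke and recovery, against 924.3, 741.8, 926.8 and 950.6 after air and recovery. The smoke range lay above the air range, and the air library of S2 was the lowest. Its fold change was 0.29 (SE 0.16, adjusted p = 0.38), and the adjusted p was 0.010 without the 5-day S1 air library. At 5 days PSMB5 had 946.5, 1090, 1317 and 1142 after smoke, against 1829, 965.7, 901.1 and 1025 after air. The air library of S1 was the highest of all, and the other 3 animals were higher in smoke, so that the fold change was -0.02 with S1 and 0.29 without the animal S1.

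PSMB1, a structural beta subunit, stood higher in smoke in all 4 animals at 1 day. It had 1276, 1213, 1452 and 1415 normalized counts after smoke, against 1177, 1061, 1150 and 1218 after air. These ranges touched only through the smoke library of S2, which lay below the air library of S4. The fold change was 0.22 (SE 0.12, adjusted p = 0.9998). At 5 days PSMB1 had 1573, 1659, 1731 and 1686 after smoke, against 2258, 1199, 1399 and 1447 after air, with a fold change of 0.12 (adjusted p = 0.59), and of 0.31 (adjusted p = 0.0047) without the air library of S1. PSMB7, which carries the trypsin-like site, had a fold change of 0.30 after recovery (adjusted p = 0.31; 0.0023 without the 5-day S1 air library), and without that library PSMB1, PSMB4, PSMB5 and PSMB6 were also called higher.

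The immunoproteasome subunits had a median fold change of -0.36 at 5 days (0 of 3 above 0), of 0.04 (2 of 3) without the air library of S1, and of 0.48 after recovery (3 of 3). None passed at a single time, where 0, 1 and 2 of 3 had an unadjusted p under 0.05 at 1 day, 5 days and recovery, and the change between 5 days and recovery passed for PSMB9. PSMB9 (ENSMMUG00000011304) had 195.6, 106.8, 172.4 and 102.3 normalized counts after 5 days of smoke, against 582.1, 180.8, 156.1 and 193.4 after 5 days of air. It was lower in smoke in S1, S2 and S4 and higher in S3, and the air library of S1 was far above the rest. The fold change was -0.77 (SE 0.23, adjusted p = 0.080), and -0.49 (adjusted p = 0.12) without that library. After recovery PSMB9 had 162.2, 110, 124.4 and 129.8 in smoke cultures, against 135.1, 76.64, 107.8 and 64.12 in air cultures. Smoke was higher in 4 of 4 animals but the ranges overlapped, since the air library of S1 exceeded 3 smoke libraries, and the fold change was 0.50 (SE 0.26, adjusted p = 0.26; 0.042 without the 5-day S1 air library).

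The change of the smoke effect of PSMB9 between 5 days and recovery was 1.27 (SE 0.32, adjusted p = 0.032, upward in 4 of 4 animals), and 0.99 (adjusted p = 0.014) without the 5-day S1 air library. Without the block the adjusted p was 0.32, and with only the libraries of the contrast it was 0.12. The call was lost on leaving out the 5-day smoke library of S1, S2 or S4, the recovered air library of S1, S2 or S4, the recovered smoke library of S3 or S4, or all libraries of S2 or S4, with adjusted p up to 0.33. PSMB9 was also set against PSMB6, the subunit that it replaces, within each library. The log2 ratio of PSMB9 to PSMB6 differed between smoke and air by -0.84 ± 0.33 at 5 days (SD over 4 animals, below 0 in 4) and by 0.26 ± 0.27 after recovery (above 0 in 4). At 1 day that difference was -0.33 ± 0.31, and it was below 0 in 3 animals. The other exchanged pairs were mixed in sign. For PSMB8 to PSMB5 the difference was -0.10 ± 0.19 at 5 days and 0.14 ± 0.14 after recovery, and for PSMB10 to PSMB7 it was -0.25 ± 0.29 and 0.18 ± 0.24, with 1 of 4 animals above 0 at 5 days and 3 of 4 after recovery in each pair.

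PSMB8, which replaces PSMB5, had 1559, 1358, 936 and 1185 normalized counts after smoke and recovery, against 1333, 904.5, 770.5 and 784.9 after air and recovery. It was higher in smoke in 4 of 4 animals, by 0.42 (SE 0.13, adjusted p = 0.093; 8.7e-04 without the 5-day S1 air library), with overlap through the air library of S1. At 5 days it had 1836, 1317, 1328 and 1273 after smoke, against 3116, 1342, 1051 and 1305 after air, a fold change of -0.12, and of 0.08 without the air library of S1. PSMB10, which replaces PSMB7, had 384.5, 358.6, 250.7 and 405.4 after smoke and recovery, against 314, 210.9, 221.4 and 249.9 after air and recovery (fold change 0.48, adjusted p = 0.30; 0.0042 without the 5-day S1 air library). At 5 days PSMB10 had 422.6, 350.1, 333.3 and 351.8 after smoke, against 1333, 377.1, 239.7 and 392.2 after air, a fold change of -0.36, and of 0.04 without the air library of S1. As for PSMB8 and PSMB9, the air library of S1 was the highest, and S3 was the animal in which smoke was higher. At 1 day the median of the 3 subunits was 0.06, with PSMB8 and PSMB10 above 0 and PSMB9 below it.

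**Figure D4:**
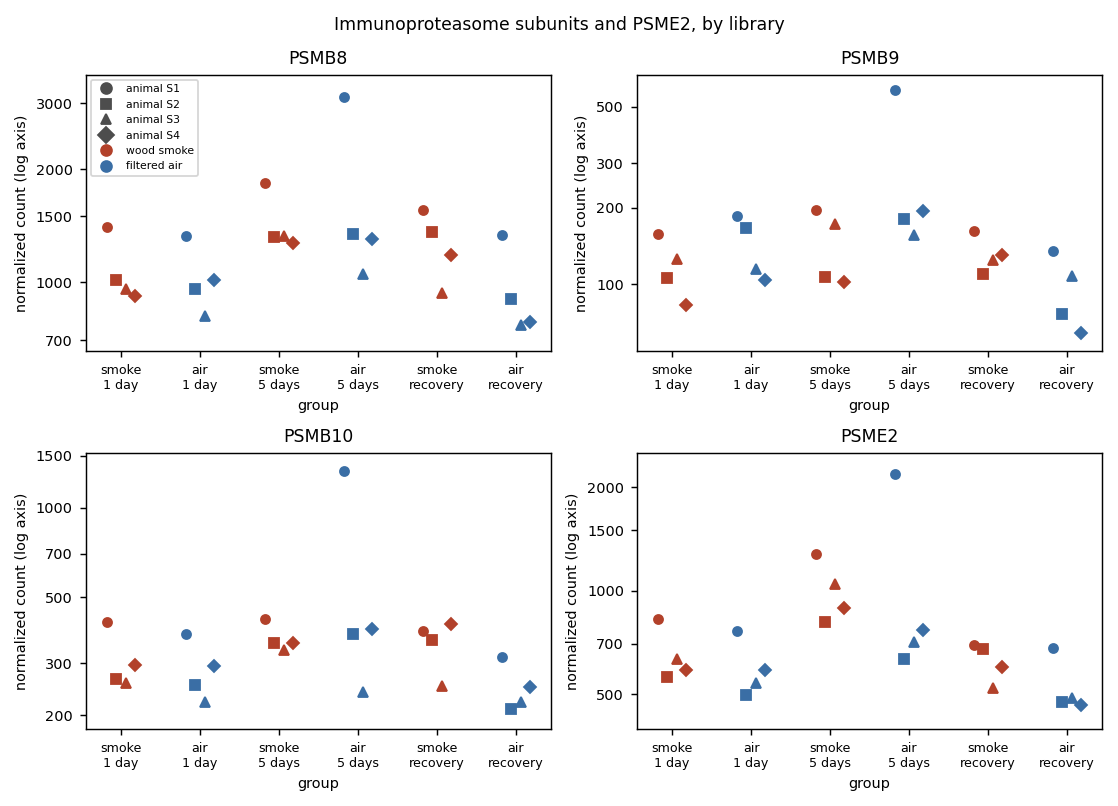
Normalized counts (log axis) of PSMB8, PSMB9, PSMB10 and PSME2 in each library, smoke left of air at each time, with colours for smoke and air and symbols for the animals. The 5-day S1 air library is the highest point for each gene (582.1 for PSMB9), and the recovered smoke libraries lie above the recovered air library of the same animal.

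Interferon and antigen presentation genes were set beside these subunits from a list chosen after the values of PSMB8, PSMB9 and PSMB10 were seen. IRF1, a transcription factor that induces immunoproteasome genes, was lower in smoke at 5 days (fold change -0.66, adjusted p = 0.023) and after recovery (-0.53, adjusted p = 0.039), in 4 of 4 animals each time; without the 5-day S1 air library these values were -0.53 (0.014) and -0.53 (0.0028). B2M, the light chain of MHC class I, was higher in smoke after recovery (0.30, adjusted p = 0.041), with 16560, 16860, 13740 and 16880 normalized counts, against 15080, 13070, 12070 and 11680 in air. Neither gene was called without the block. ISG15, MX1, NLRC5 and TAPBP were not called in any comparison of smoke with air. The marker genes of immune cells summed to 2968 to 5378 in recovered smoke cultures, against 2446 to 3519 in recovered air cultures, and 0 of 3 tested were called. Their part in these results was not tested.

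Among the 19S caps, the non-ATPase subunits held the calls at 5 days. PSMD11 (ENSMMUG00000018962), a scaffold of the lid, had 960.9, 869.1, 798.4 and 793.2 normalized counts after smoke, against 659.7, 676.9, 696.5 and 692.4 after air. All smoke libraries lay above all air libraries, the air values were tight, and S1 and S2 were the highest in smoke. The log2 fold change was 0.32 (SE 0.07, 1.25-fold, adjusted p = 0.023, 4 of 4 animals). The adjusted p was 0.0065 without the 5-day S1 air library, 0.14 without the block and 0.80 with only the 5-day libraries in the fit. It was 0.10 without the 5-day smoke library of S1 and 0.065 without that of S2, and from 0.155 to 0.160 without all libraries of S2, S3 or S4.

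PSMD1 (ENSMMUG00000011769), the large subunit at the base of the cap, had 2004, 2036, 1898 and 2010 normalized counts after 5 days of smoke, against 1932, 1509, 1586 and 1510 after 5 days of air. The groups overlapped through the air library of S1, and the other 3 air libraries lay well below. The log2 fold change was 0.29 (SE 0.07, 1.22-fold, adjusted p = 0.038), 0.34 (adjusted p = 0.0016) without that air library, and the adjusted p was 0.28 without the block and 0.80 with only the 5-day libraries. The call held in 13 of the 28 fits that left out a library or an animal, with adjusted p up to 0.26. It was lost without any 1 of the 5-day smoke libraries, the 5-day air libraries of S2 and S4, the 1-day libraries of S3 and S4, the recovered air library of S4 and the recovered smoke library of S3, and without all libraries of S2, S3 or S4. PSMD2, its partner at the base, showed 3941, 4022, 4245 and 4260 after smoke, against 3631, 3452, 3678 and 3758 after air, with no overlap and a fold change of 0.18 (SE 0.05, adjusted p = 0.081; 0.013 without the air library of S1).

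After recovery PSMD11 and PSMD1 no longer stood higher in smoke. PSMD11 had 851.5, 755.3, 768.4 and 771.4 normalized counts after smoke, against 930.2, 824.4, 847.5 and 850.1 after air, lower in smoke in 4 of 4 animals at a fold change of -0.13 that was not called. The change of its smoke effect between 5 days and recovery was -0.46 (SE 0.10, adjusted p = 0.013, downward in 4 of 4 animals; 0.084 without the block and 0.11 with only the libraries of the contrast). That call was lost on leaving out all libraries of S2, S3 or S4, with adjusted p up to 0.17. PSMD1 had 1944, 1954, 1745 and 1765 after smoke, against 2192, 1773, 1763 and 1866 after air, with a fold change of -0.03 and animals on both sides.

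PSMD14, the deubiquitinase of the lid, did not pass at any time (adjusted p = 0.16 after recovery). It had 1016, 1138, 997.1 and 1150 normalized counts after smoke and recovery, against 1045, 831.4, 844.7 and 954.5 after air and recovery, with a fold change of 0.23 (adjusted p = 0.040 without the 5-day S1 air library), S1 being the animal in which smoke was lower. All 11 non-ATPase genes were above 0 at 1 day (median 0.11), 9 of 11 at 5 days (0.12) and 8 of 11 after recovery (0.10). All 5 ATPases were above 0 at 1 day (median 0.11) and after recovery (0.13). PSMC2 had 1305, 1562, 1457 and 1790 after smoke and recovery, against 1385, 1148, 1153 and 1333 after air and recovery, a fold change of 0.28 (adjusted p = 0.081; 0.010 without the 5-day S1 air library). Without that library PSMC1 and PSMC3 were called higher at 5 days, at 0.30 and 0.33.

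The ATPase matched by its identifier, PSMC6, was called higher after recovery. It had 1044, 1196, 1030 and 1272 normalized counts after smoke, against 886.8, 956.4, 860.9 and 875.8 after air, with no overlap. The fold change was 0.34 (SE 0.09, adjusted p = 0.040; 0.0011 without the 5-day S1 air library and 0.22 without the block).

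Of the activators, PSME1 and PSME2 form the 11S ring that interferon induces, PSME3 forms the nuclear 11S ring, and PSME4 is the single-chain activator PA200. None passed at any time, and 1, 1 and 0 of 4 had an unadjusted p under 0.05 at 1 day, 5 days and recovery. PSME3 was higher in smoke in 4 of 4 animals at 1 day, with 2035, 1817, 1939 and 1817 normalized counts, against 1706, 1554, 1633 and 1697 after air. The groups did not overlap, and the fold change of 0.21 (SE 0.07) had an adjusted p of 0.84. PSME4 had the highest fold change of any member at 5 days, 0.67 (SE 0.24, adjusted p = 0.15), with 1462, 1750, 1550 and 1761 after smoke, against 389.8, 1313, 1361 and 1546 after air. The air library of S1 held the lowest value of the 24 libraries, and without it the fold change was 0.23 (adjusted p = 0.055).

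PSME2 had 1276, 809.1, 1049 and 892.1 normalized counts after 5 days of smoke, against 2192, 633, 707.3 and 767.2 after 5 days of air. Smoke was higher in S2, S3 and S4, and the fold change was 0.09 with the air library of S1 and 0.39 (adjusted p = 0.021) without it. PSME1 had 1342, 1200, 990.2 and 1389 after smoke and recovery, against 1226, 882.5, 961.7 and 1079 after air and recovery, a fold change of 0.24 (adjusted p = 0.40; 0.024 without the 5-day S1 air library). PSMF1, an inhibitor of the core, had the highest fold change of any member at 1 day, 0.24 (adjusted p = 0.96). It had 997.2, 952.5, 1001 and 965.6 after smoke, against 789.3, 856.8, 843.9 and 821.3 after air, with no overlap, and its fold change after recovery was -0.14.

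The assembly chaperones build the core ring by ring and dock the cap, and none of the 7 passed, with 0, 1 and 1 at an unadjusted p under 0.05 at 1 day, 5 days and recovery. PSMD10, or gankyrin, which escorts an ATPase during cap assembly, had the lowest fold change of any member at 1 day, -0.40 (SE 0.21, adjusted p = 0.9998). It had 137.4, 180.4, 184.7 and 172.3 normalized counts after smoke, against 188.8, 212.3, 264 and 224.4 after air, lower in smoke in 4 of 4 animals without overlap. At 5 days PSMD10 had 237.9, 233.9, 297.7 and 214.2 after smoke, against 71.1, 182.5, 255.9 and 227.1 after air, and after recovery 214.8, 216.4, 323.6 and 298.7, against 178.7, 192.6, 205.8 and 220.9. Its fold change was thus 0.55 at 5 days, where S4 was lower in smoke, 0.22 at that time without the air library of S1, and 0.38 after recovery (adjusted p = 0.014 without the 5-day S1 air library). PSMG1, a chaperone of the alpha ring, had 454.5, 587.4, 531.6 and 582.2 after smoke and recovery, against 434.8, 456.6, 462.3 and 402.9 after air and recovery (fold change 0.29, adjusted p = 0.27; 0.020 without the 5-day S1 air library). POMP, the chaperone of the beta ring, is given below with the pathway genes.

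No TRiC gene passed in a comparison of smoke with air. At 1 day, 5 days and recovery 0, 0 and 3 of 8 had an unadjusted p under 0.05, with no share of all genes set beside these counts. After 1 day 1 of 8 was above 0, with a median of -0.04, after 5 days 6 of 8 (median 0.03) and after recovery 7 of 8 (median 0.10). CCT2 had 1872, 1980, 2418 and 2158 normalized counts after 1 day of smoke, against 2107, 2070, 2508 and 2356 after 1 day of air, lower in each animal's smoke culture with overlapping ranges (fold change -0.10, adjusted p = 0.9998). After recovery CCT2 had 2346, 2446, 2864 and 2637 after smoke, against 2106, 1959, 2182 and 2232 after air, with no overlap. The fold change was 0.28 (SE 0.08, adjusted p = 0.067), and the adjusted p was 0.0017 without the 5-day S1 air library.

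CCT4 and CCT8 had fold changes of 0.25 and 0.18 after recovery (adjusted p = 0.10 and 0.089), and both passed without the 5-day S1 air library, at 0.018 and 0.0072. TCP1, the founding subunit, had 2142, 2372, 2512 and 1993 normalized counts after smoke and recovery, against 2265, 2105, 2279 and 1861 after air and recovery. CCT6A had 2169, 2244, 2310 and 1844, against 2230, 2174, 2216 and 2018. TCP1 and CCT6A thus had fold changes of 0.08 and -0.02 with overlapping ranges and were not called in either fit. PSMC3IP ranged from 32.42 to 108.4 over all libraries and was not called at any time.

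The smoke effect was called different between times for few members. Between 1 day and 5 days 0 of 54 members were called, where 0.0427% of all genes were and 0.306% without the 5-day S1 air library; 3 members had an unadjusted p under 0.05. Between 5 days and recovery PSMB9 went up and PSMD11 down, where 3.56% of all genes were called; without that library PSMB9 went up and PSMD1, PSMD11 and PSME4 down, where 11.3% were. Between 1 day and recovery 0 of 54 were called, where 1.22% of all genes were, and 7 had an unadjusted p under 0.05. Without that library 8 went up (CCT2, CCT8, PSMA3, PSMA4, PSMA6, PSMB8, PSMB9 and PSMD10) and PSMF1 went down, where 9.20% of all genes were called. These changes share libraries with each other and with the comparisons at single times.

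The summed markers of basal and of cycling cells were lower in smoke cultures after recovery. The 7 basal cell markers summed to 21870 to 41500 in smoke cultures, against 57580 to 69030 in air cultures, and 4 of 7 were called lower, KRT5 by -1.22. The 8 cycling markers summed to 306 to 651, against 752 to 800, with 1 called lower. The squamous list summed to 21260 to 29400, against 27460 to 41340. The ciliated list summed to 9359 to 26370, against 8294 to 18600, and no marker of either list was called. Over all lists 5 of 42 were called lower and 0 higher, where 3.41% of all genes were called in either direction. At 1 day and at 5 days none of the 42 markers tested in 8 lists was called, with 0 and 7 at an unadjusted p under 0.05. The part of cell makeup in the values of the members was not tested.

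The members were also compared between times in the air cultures. At 5 days, against 1 day, 15 of 54 were called higher and 0 lower, where 19.4% of all genes were called, 9.88% higher and 9.52% lower; without the 5-day S1 air library 12 were higher and 0 lower, where 18.6% of all genes were called. With only the air libraries of those times no member and no other gene was called. The proteasome median was 0.25 (39 of 45 above 0), and 0.11 (34 of 45) without that library. PSMA2 had 2543, 1523, 1302 and 1439 normalized counts at 5 days, against 1083, 1096, 1061 and 1149 at 1 day. All 5-day libraries lay above all 1-day libraries, and S1 the farthest, and the fold change was 0.58 (adjusted p = 0.0087), and 0.35 (9.4e-04) without the air library of S1. PSMB8 had a fold change of 0.61 (adjusted p = 0.0058), PSMB9 of 0.77 (0.025), PSMB10 of 0.73 (0.036), PSME1 of 0.49 (0.025) and PSME2 of 0.66 (0.019). Without the air library of S1 PSMB8 (0.41), PSME1 (0.26) and PSME2 (0.36) passed, and PSMB9 (0.49) and PSMB10 (0.34) had adjusted p of 0.065 and 0.053.

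After recovery, against 5 days, 12 members were lower in air cultures and 6 higher, where 28.4% of all genes were called, 14.1% lower and 14.2% higher. Without the 5-day S1 air library 11 were lower and 7 higher, where 27.1% were called. With only the air libraries of those times 0 members were called, where 0.0284% of all genes were. The lower members were PSMB9 (-1.36, adjusted p = 3.6e-04), PSMB10 (-0.92), PSME2 (-0.84), PSMB8 (-0.74), PSME1 (-0.71), CCT2, CCT3, CCT4, CCT7 and CCT8 (-0.33 to -0.19), PSMC5 and PSMD4. Without the air library of S1 these were -1.08 for PSMB9, -0.52 for PSMB10, -0.54 for PSME2, -0.54 for PSMB8, -0.48 for PSME1, -0.22 to -0.18 for the 5 CCT genes, and -0.18 for PSMC5, whose call was lost, and -0.21 for PSMD4. The other 3 TRiC genes, CCT5, CCT6A and TCP1, were not called. PSMB9 had 135.1, 76.64, 107.8 and 64.12 normalized counts after recovery, against 582.1, 180.8, 156.1 and 193.4 at 5 days, with no overlap. The higher members were PSMD12 (0.35), PSMD7 (0.35), PSMD11 (0.34), PSMD1 (0.22), PSME3 (0.22) and PSME4 (0.80, and 0.35 without the air library of S1).

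After recovery, against 1 day, 4 members were higher in air cultures and 0 lower, where 13.0% of all genes were called, 6.63% higher and 6.34% lower. PSMD7, a lid subunit that pairs with PSMD14, had 1107, 1089, 1019 and 1147 normalized counts after recovery, against 711.2, 810.8, 733.4 and 629.6 at 1 day. The times did not overlap, and the fold change was 0.60 (SE 0.10, 1.52-fold, adjusted p = 4.3e-04); the other 3 genes were PSMD12 (0.32), PSME3 (0.32) and PSMA3 (0.28). Without the 5-day S1 air library 17 were higher and 3 lower (CCT3, PSMB9 and PSME1), where 30.4% of all genes were called. Without the block 2 members were called at 5 days against 1 day, 5 after recovery against 5 days, and 2 after recovery against 1 day. The shares of all genes called in that fit were 3.98%, 11.3% and 2.19%. In the same air cultures 7 of 8 cycling markers and 4 of 7 basal markers were lower at 5 days than at 1 day, and 1 of 3 immune markers was higher. After recovery, against 5 days, 5 of 7 basal markers were higher and 1 lower, and 4 of 7 secretory and 2 of 3 immune markers were lower, the immune list summing to 2446 to 3519 in recovered air cultures, against 3398 to 4887 at 5 days. Their part in these values was not tested.

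**Figure D5:**
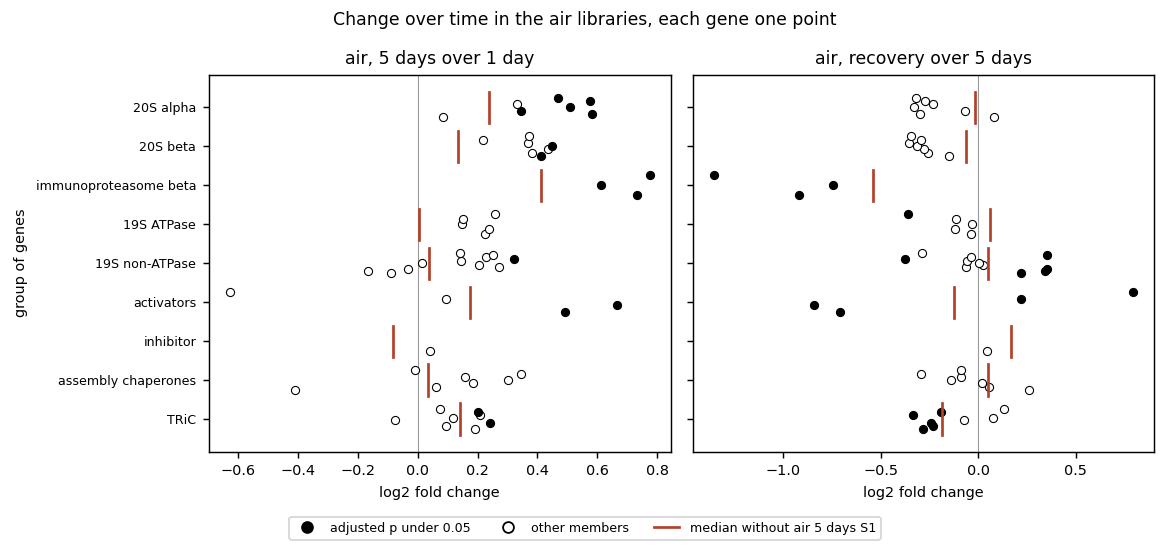
Log2 fold change with time in the air cultures for each proteasome and TRiC gene by role, at 5 days over 1 day and after recovery over 5 days, with filled points for an adjusted p under 0.05 and red lines for medians without the 5-day S1 air library. The immunoproteasome genes PSMB9 and PSMB10 lie highest in the first panel and lowest in the second. The activator PSME2 (0.66 and -0.84) lies beyond PSMB8 (0.61 and -0.74) in both. The immunoproteasome medians are 0.73 and -0.92, and 0.41 and -0.54 without that library.

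Other genes of the pathway were read from a list of regulators, ubiquitin carriers, TRiC cofactors and TRiC clients, of which 52 rows were tested. After 1 day none was called (0.0782% of all genes), and 2 had an unadjusted p under 0.05. After 5 days NPLOC4, an adaptor of the unfoldase VCP, was higher in smoke (0.44, adjusted p = 0.027) and ACTG1, a cytoplasmic actin that TRiC folds, was lower (-0.55, adjusted p = 0.011). Those calls were 3.85% of the list, against 1.69% of all genes. ACTG1 had 17300, 19860, 17410 and 16880 normalized counts after smoke, against 29860, 26470, 22890 and 25290 after air, with no overlap. After recovery POMP (0.38, adjusted p = 0.021), the constitutive chaperone HSPA8 (0.33, adjusted p = 0.041) and TXNL1, a redox protein bound to the cap (0.36, adjusted p = 0.042), were higher and none was lower. Those calls were 5.77% of the list, against 3.41% of all genes. POMP had 1153, 1212, 1336 and 1410 after smoke, against 933, 945.3, 999.7 and 1041 after air, so that the groups did not overlap, as for PSMA3 and PSMA6. Each of these 5 genes also passed without the 5-day S1 air library.

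The smoke effect between 5 days and recovery went up for HSPA8 (0.68) and POMP (0.58) and down for NPLOC4 (-0.66). That between 1 day and recovery went up for PFDN4, a prefoldin subunit that hands clients to TRiC (1.75, adjusted p = 0.033). Such calls were 5.77% and 1.92% of the list, against 3.56% and 1.22% of all genes. In air cultures 9 list genes were higher and 5 lower at 5 days against 1 day, 5 higher and 10 lower after recovery against 5 days, and 3 higher and 4 lower after recovery against 1 day. These were 26.9%, 28.8% and 13.5% of the list, against 19.4%, 28.4% and 13.0% of all genes. NFE2L1 was not called in a comparison of smoke with air. It had 7960, 8274, 7672 and 7679 normalized counts after 5 days of smoke, against 9321, 9389, 9233 and 8531 after 5 days of air, lower in smoke in 4 of 4 animals without overlap, at a fold change of -0.21 (adjusted p = 0.065; 0.022 without the 5-day S1 air library). Without that library 2 list genes were higher and 5 lower in smoke at 5 days, where 6.26% of all genes were called. After recovery 10 were then higher and 5 lower, where 18.8% of all genes were called. Without the block none was called in the 3 comparisons of smoke with air.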

How the data were processed

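Poly-A RNA of 24 libraries was read from 1 table of the whole series, deposited as a signal per gene and library that is not whole although the table is named as counts. In each library 81.9 to 84.0% of the low values fell on whole multiples (within 0.1) of a library-specific step, as counts divided by a size factor give, so the deposited signal is called normalized counts. The steps put the depth at about 9510000 to 17400000 reads per library; the number of animals limits precision. Per the submitters' processing notes, the authors used FastQC, Trim Galore, Bowtie2 and RSEM; their versions, the genome build, the annotation and the normalizing tool were not given in the sources used here.

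Log2(value + 1) of 14062 genes (10 or more in at least 4 libraries) was fitted with limma 3.58.1 in R 4.3.3 (trended moderated variances, two-sided, Benjamini-Hochberg, 0.05) on 6 groups with animal as a block, because the labels name the same 4 animals in each group. Libraries of 1 animal deviated together from their group means (median r = 0.612 over 60 pairs, lowest 0.303). The median was -0.189 over 180 pairs of different animals in different groups. Taking out the group means itself pushes such pairs below 0, so that value is no separate support for the block. A count model was not used because the values are not whole. The labels do not say whether an animal's cultures were separate preparations.

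Members and lists were chosen with earlier results of these data known. Named were called members (up to 10 a comparison), the highest and lowest fold change, the smallest p of each role, and a fixed set (PSMB5, PSMB8, PSMB9, PSMB10, PSME1, PSME2, PSMD14, POMP, TCP1, CCT2, CCT6A, NFE2L1); the interferon list (1 of its genes is not reported here) and PSMC6 were added after values were seen. Alternatives were no block, animal as a random effect, the libraries of each contrast alone, quality weights, library totals or upper quartile scaling, other pseudocounts and filters, an adjusted p of 0.1, and leaving out each library or animal. The fit was tested on simulated data. Figures were drawn with matplotlib 3.10.9.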

Additional observations from a re-analysis of the deposited data

Results flagged for a closer look

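Of 210 groups of 4 values (33 members and the proteasome and TRiC medians, each in 6 groups), 23 had a highest or lowest library whose gap to the next was above Dixon's critical share of the range, where chance gives about 1 in 20. The 5-day S1 air library accounts for 11 of the 22 member values and for the proteasome median, 0.65. In that library CCT7 stood at 3157, PSMA3 at 1279, PSMA7 at 2604, PSMB5 at 1829, PSMB7 at 2287, PSMB8 at 3116, PSMB9 at 582.1, PSMB10 at 1333, PSME2 at 2192, PSMF1 at 1154 and PSMG1 at 720.8, each above the other 3 animals' air libraries. The part of that library's differences in cell makeup was not tested.

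The others were spread over groups. In S1, PSMD1 was high after 1 day of smoke (1927), PSMB8 after 5 days of smoke (1836), PSMD11 after smoke and recovery (851.5), PSMA6 after 1 day of air (984.5) and PSME2 after air and recovery (679.6). In S2, PSMA3 was low after 1 day of smoke (728.1), PSMC3IP low (32.42) and PSMG1 high (527.7) after 5 days of smoke, CCT6A low after 1 day of air (1694) and PSMB5 low after air and recovery (741.8). In S3, PSMC2 was low after 1 day of air (1049).

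The smoke effect differed between recovery and 5 days, by the test of the change itself, for PSMB9 (1.27, adjusted p = 0.032) and PSMD11 (-0.46, adjusted p = 0.013) in limma, in 4 of 4 animals each.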

How the results depend on the processing

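The counts of called members depended on the fit more than the directions of the called values did. Without the replicate block, which ignores that each animal gave a library to every group, the counts were 0 at 5 days, 0 after recovery and 0 for the change between them. In air they were 2 at 5 days against 1 day, 5 for recovery against 5 days and 2 for recovery against 1 day. The shares of all genes called were 0.0711%, 0.242%, 0.348%, 3.98%, 11.3% and 2.19% in the same order. Leaving out both the block and the 5-day S1 air library gave 1 for smoke at 5 days, 5 for smoke after recovery, 1 for air at 5 days against 1 day and 5 for air recovery against 5 days. The shares of all genes called in that fit are not given here. With the block kept and the 5-day S1 air library left out the counts were 8 for smoke at 5 days, 24 after recovery, 4 and 9 for the changes to recovery from 5 days and from 1 day, and 20 for air recovery against 1 day. There the shares of all genes called were 6.26%, 18.8%, 11.3%, 9.20% and 30.4%.

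With only the libraries of each contrast, 9 members were called for smoke at 1 day, 0 at 5 days and 21 after recovery. The shares of all genes were 9.11%, 0% and 18.8%. For the changes to recovery from 5 days and from 1 day, 0 and 6 members were called, where 0.519% and 8.26% of all genes were. In air the counts were 0 (5 days against 1 day), 0 (recovery against 5 days) and 17 (recovery against 1 day). There 0%, 0.0284% and 26.2% of all genes were called. With quality weights the 5-day S1 air library weighed 0.0251. The smoke counts were then 7, 10 and 21 at 1 day, 5 days and recovery, where 5.23%, 8.06% and 16.3% of all genes were called. The changes were 2 (1 to 5 days), 7 (5 days to recovery) and 10 (1 day to recovery), where 1.39%, 13.7% and 12.3% were. The air counts were 26 (5 days against 1 day) and 26 (recovery against 1 day), where 28.7% and 36% were. Library totals gave 4 after recovery, 2 for the change between 1 day and recovery and 7 for air at 5 days against 1 day. No filter gave 1 at 5 days and 1 after recovery. An adjusted p of 0.1 gave 4 at 5 days, 6 after recovery, 27 for air at 5 days against 1 day and 7 for air recovery against 1 day. For library totals, no filter and an adjusted p of 0.1 the shares of all genes called are not given here. Those counts therefore do not show whether members moved more than other genes.

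Leaving out 1 library or animal gave 0 to 12 members for smoke at 5 days, 0 to 25 after recovery, 0 to 6 and 0 to 9 for the changes to recovery from 5 days and from 1 day, and in air 2 to 26 (5 days against 1 day), 7 to 25 (recovery against 5 days) and 1 to 20 (recovery against 1 day). Without all libraries of S1 the smoke counts were 12 at 5 days and 25 after recovery, and without S2, S3 or S4 they were 0. The shares of all genes called in these fits are not set beside the counts.

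Scaling by library totals moved the median of all genes by 0.16 and 0.10 for the changes from 1 day to 5 days and to recovery and by -0.15 for air at 5 days against 1 day. Under it the proteasome median was 0.024 for smoke at 1 day, where the median of all genes was -0.078. For air recovery against 1 day the proteasome median was 0.044, where that of all genes was -0.065. In that comparison the proteasome median was 0.10 with the upper quartile and 0.11 to 0.14 leaving out a library or animal. Under library totals the TRiC median was -0.12 for smoke at 1 day, where the median of all genes was -0.078. Leaving out a library or animal, without that scaling, gave -0.073 to -0.011. For the changes from 1 to 5 days, 5 days to recovery and 1 day to recovery the TRiC median under totals was 0.22, 0.049 and 0.26. The medians of all genes were 0.16, -0.061 and 0.11. In air the TRiC median under totals was 0.0066 at 5 days against 1 day and -0.14 in recovery against 5 days. The medians of all genes were -0.14 and 0.089.

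Of 3403 comparisons of 83 named values with their alternatives, 3057 were the same. These kept the side of the threshold. They also kept direction, or were uncalled and crossed 0 by a move smaller than the SE. In 222 comparisons a call was lost, and in 80 one was gained. A further 43 stayed uncalled and crossed 0 by a larger move, and 1 was called with the opposite sign. PSMB5 at 5 days turned to 0.29 without S1 (-0.21 to 0.29 over all omissions). It was called in 1 of the 28 omissions, at an adjusted p of 0.034 in limma. Other values at 5 days crossed 0 over the omissions without being called in any. Such were PSMB10 (-0.64 to 0.07), PSMB8 (-0.28 to 0.09), PSME1 (-0.235 to 0.15) and CCT7 (-0.19 to 0.05). All 30 called values kept their sign. Of their 1230 comparisons, however, 1008 kept the call and 222 lost it. The cause of the differences between fits was not tested.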
